A study of Homo sapiens with 36 samples.

Results

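STAT3 was knocked down in Src-transformed breast epithelial cells, and 2 libraries of these cells (STAT3i_TAM) were compared with 2 libraries that received a control siRNA (Ctrli_TAM). These 4 libraries were taken by their sample titles from the 36 libraries of the series. All come from MCF-10A ER-Src, a line derived from MCF-10A, a non-transformed human mammary epithelial line, that carries the v-Src oncoprotein fused to the ligand-binding domain of the estrogen receptor. Tamoxifen (TAM) switches the fusion protein on and the cells become transformed, while ethanol (ETH) serves as the vehicle. Per the labels, transformation was induced with 0.4 to 1 µM tamoxifen together with 2 to 4 µM AZD0530, a compound known as an inhibitor of Src family kinases. All ER-Src groups grew in the same medium with charcoal-stripped serum, EGF, hydrocortisone, cholera toxin and insulin. Cells were transfected with a pool of siRNAs against STAT3 or with a control siRNA. Per the study's methods, treatment of siRNA-transfected cells with tamoxifen and AZD0530 at 4 µM began a day after transfection. It lasted either a short time or a further day, and which of these applies to the RNA libraries is not stated. The untransformed counterparts are Ctrli_ETH and STAT3i_ETH, with 2 libraries each, and a further 2 libraries received siRNA against JUNB under TAM (JUNBi_TAM). Levels in the TAM libraries with siRNA against YAP or TAZ (YAPi_TAM and TAZi_TAM, 2 each) are given for STAT3 and IFIT1. In MDA-MB-231, a triple-negative breast cancer line, 2 libraries with STAT3 siRNA and 2 with control siRNA were used. Per the study's methods, this line grew in a different medium, DMEM with fetal bovine serum. The labels do not say whether replicates were separate cultures, so p-values measure only the spread between these libraries.

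STAT3 is a latent transcription factor of the cytoplasm. Cytokines of the IL-6 family bind receptors that share the gp130 subunit, the attached JAK kinases phosphorylate STAT3, and its dimers enter the nucleus and bind DNA at sites of the form TTCNNNGAA, where N is any base. Src family kinases can phosphorylate STAT3 as well. Well-known targets include SOCS3, which blocks the receptor and so closes a negative feedback loop, and the acute phase proteins that liver and epithelia make during inflammation. AP-1, a family of dimers of FOS, JUN and related proteins, shares many of these targets, and its own genes are among the earliest to respond to growth signals.

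The depth was 10275885 and 6419720 expected counts in Ctrli_TAM and 16544192 and 13756191 in STAT3i_TAM. Mitochondrial genes took between 0.373% and 0.524% of the counts and a group of abundant RNAs without poly(A) tails between 9.9% and 10.5%. Gene length exceeded the deposited effective length by 49 bases in the STAT3i and JUNBi libraries of ER-Src cells and by 49.49 bases in the Ctrli libraries. In the comparison with Ctrli this difference and the knockdown cannot be told apart. It is the same on both sides in the comparison with JUNBi_TAM, and in the difference between the effects in TAM and in ETH it is present in both. The 7 mammary basal markers summed to 127011 and 129584 normalized counts in Ctrli_TAM and to 107792 and 117549 in STAT3i_TAM. KRT14, KRT17 and CDH3 among them were called lower by the test described below. The other 4 were not called, with log2 fold changes of up to 0.56. Of the markers listed for other cell types, 5 of 7 leukocyte, 4 of 7 luminal, 3 of 7 fibroblast and 2 of 5 endothelial markers were under 10 in all 4 libraries. The summed leukocyte markers stood at 780 and 796 in Ctrli_TAM and at 306 and 353 in STAT3i_TAM, nearly all of it from CD14 and CD68, and CD68 shares 85.6% of its exonic bases with other genes. The endothelial markers summed to 70 and 86 in Ctrli_TAM and to 160 and 123 in STAT3i_TAM. Fibroblast markers summed to between 1131 and 2051, and luminal markers to between 2403 and 4711. The part of these differences in the results below was not tested, and in bulk RNA fewer cells of a type and less RNA per cell cannot be told apart.

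Levels are given as normalized counts, that is, counts divided by a size factor per library, on 1 scale for the 20 ER-Src libraries. They can be compared between libraries for 1 gene, not between genes. Changes are log2 fold changes of STAT3i over Ctrli from DESeq2 with their standard errors (SE), and a gene is called where the Benjamini-Hochberg adjusted p of DESeq2, over all genes tested, is under 0.01.

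The STAT3 transcript (ENSG00000168610.14, chr17:42313324-42388540 on the minus strand of GRCh38) was examined first. It stood at 4597 and 4015 normalized counts in Ctrli_TAM and at 715 and 631 in STAT3i_TAM. Both knockdown libraries were far below both controls, a 6.31-fold difference (log2 -2.66, SE 0.14, DESeq2 adjusted p 7.6e-80). Under ETH it was at 2017 and 1976 in Ctrli and at 538 and 539 in STAT3i. In the other 6 TAM libraries with a knockdown, it lay between 4614 and 5653.

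In TAM-treated cells, STAT3i lowered the transcripts of STAT3 feedback regulators, AP-1 subunits, acute phase proteins, calprotectin and the SERPINB3 and SERPINB4 genes, and raised those of CD24, TIMP3, CDKN1C, the EGF family ligands EPGN and AREG and a part of the interferon-stimulated genes. Of 14470 genes tested, 1170 were called (8.09%), of which 694 were lower (4.8%) and 476 higher (3.29%). The falls were the larger changes. Among the lower genes the median log2 fold change was -1.11, with 158 at least 4-fold and 79 at least 8-fold lower, and among the higher genes it was 0.80, with 51 and 21. The median over all genes tested was 0.03, and 90.2% of them lay between -1 and 1. Without 1 library the count was 409 (Ctrli_TAM replicate 1 left out), 464 (Ctrli_TAM replicate 2), 419 (STAT3i_TAM replicate 1) or 638 (STAT3i_TAM replicate 2), each with more genes lower than higher. A fit without 1 library has 1 sample in an arm, which is assumed to vary like the other group.

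**Figure D1:**
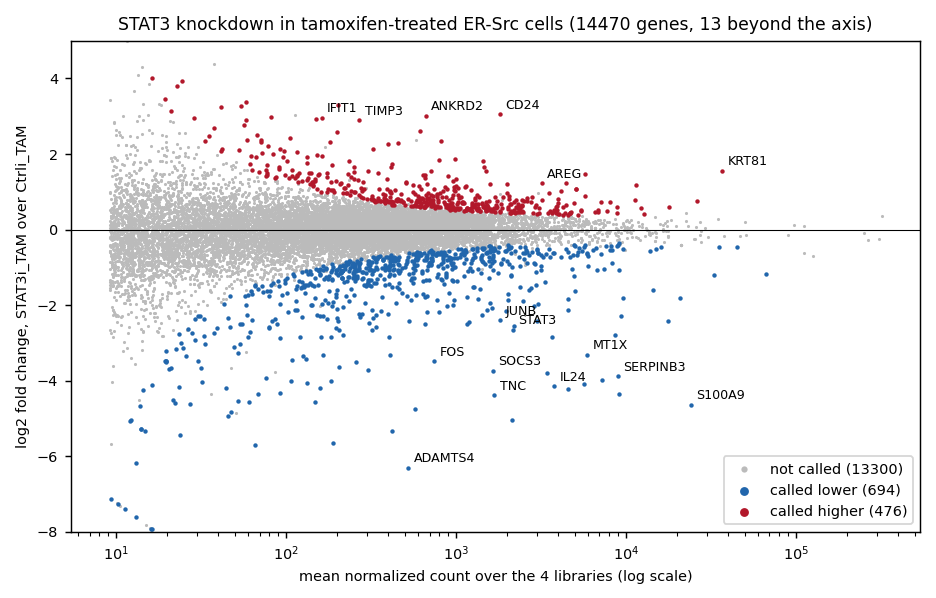
Each point is 1 of 14470 genes tested; the horizontal axis is the mean normalized count over the 2 Ctrli_TAM and 2 STAT3i_TAM libraries on a log scale, and the vertical axis the log2 fold change of STAT3i_TAM over Ctrli_TAM. The 694 genes called lower (blue) reach further from 0 than the 476 called higher (red), and S100A9 falls by 4.64.

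In the upstream part of the pathway, 2 receptor genes were called, in opposite directions. Over all genes tested 8.09% were called. Of 12 receptors and JAKs tested, of 14 listed, 1 was called higher and 1 lower, with a median of 0.03. OSMR, the receptor subunit for oncostatin M, was at 2064 and 1705 normalized counts in Ctrli_TAM and at 884 and 941 in STAT3i_TAM (-1.03, SE 0.15, DESeq2 adjusted p 5.4e-10). IL20RB, a receptor chain for the cytokines IL-19, IL-20 and IL-24, went the other way, from 805 and 821 to 1929 and 1664 (1.17, SE 0.15, adjusted p 9.3e-13). IL6ST, which encodes gp130, was at 2955 and 3113 against 3496 and 3031 and was not called (0.13, adjusted p 0.603). The kinases JAK1, JAK2 and TYK2 and the IL-6 receptor IL6R were not called either, with changes between -0.40 and 0.61. JAK3 and CNTFR were too low to be tested.

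Of the STAT genes, STAT3 was called lower. STAT2, STAT4, STAT5A, STAT5B and STAT6 had estimates between -0.25 and 0.16 that did not pass the test.

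Of 25 feedback genes and classical targets tested, of 27 listed, 12 were called lower and 0 higher, and the median was -1.06. SOCS3 was lowest. It was at 3545 and 3528 normalized counts in Ctrli_TAM and at 300 and 221 in STAT3i_TAM, 13.3-fold lower (-3.74, SE 0.16, adjusted p 1.5e-119). The related inhibitor CISH went from 150 and 106 to 37.8 and 43 (-1.66, SE 0.43, adjusted p 0.0017). PIM1, a survival kinase induced by STAT3, was at 396 and 407 against 104 and 129 (-1.77, SE 0.26, adjusted p 3.1e-10), whereas PIM2 and PIM3 both had estimates of -0.22 and were not called. The groups did not overlap in these called genes, nor in any other of the 694 genes called lower and 476 called higher. The share without overlap over all genes tested is not given beside it, so this adds no support to the calls. Without any 1 library the call of CISH was lost.

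Transcriptional regulators of the same list fell with them. BCL3, a nuclear partner of NF-kB, changed by -2.41 (SE 0.40, adjusted p 1.2e-07) and BCL6, a repressor, by -1.87 (SE 0.19, adjusted p 7.9e-20). CEBPD, a driver of acute phase genes, was at 1639 and 2699 against 688 and 808 (-1.51, SE 0.20, adjusted p 2.6e-12). CEBPB, its relative, was at 1380 and 2266 against 732 and 931, and its change of -1.11 did not pass the test (adjusted p 0.0321). HIF1A, the oxygen-sensitive subunit of the hypoxia factor, fell from 13644 and 14809 to 7510 and 5886 (-1.06, SE 0.13, adjusted p 6.9e-14). IL4R, the interleukin 4 receptor, was at 1821 and 1707 against 482 and 478, and VEGFA, the angiogenic growth factor, at 2549 and 2302 against 688 and 656, with changes of -1.86 and -1.83. TIMP1, ICAM1 and MCL1 were also lower, by -1.62, -1.25 and -0.54, although ICAM1 shares 25.4% of its exonic bases with other genes. The growth genes MYC (-0.31, adjusted p 0.0841), CCND1 (0.26, adjusted p 0.281) and BIRC5 (-0.25, adjusted p 0.289) and the survival gene BCL2L1 (-0.02, adjusted p 0.96) were not called. The call was lost without Ctrli_TAM replicate 1 for BCL3 (adjusted p 0.0151), without either STAT3i_TAM library for CEBPD (highest adjusted p 0.256) and without 3 of the 4 libraries for MCL1 (highest 0.166).

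The promoters of these genes were searched in RefSeq windows from 250 bases before to 50 after each start site (GRCh38.p14). Of the 18 genes called lower among the feedback, target and AP-1 lists, 13 had a window in the table, and 3 of those held TTCNNNGAA, a motif that reads the same on both strands. The motif is present in 7.66% of all 35116 windows. Counted by gene, as for these 3, it is present in 8.55% of the protein-coding genes tested that had a window. For the genes called lower only 76.7% had a window, so a comparison of motif shares between called and other genes is void. The 3 promoters are shown because they belong to genes that fell and hold the motif, which stands in capitals. BCL6 (chr3:187745444-187745541, minus strand) begins its motifs at -28, -5, 10 and 36 from the start site, and the last lies beyond the stretch printed. CISH (chr3:50611833-50612024, minus strand) has them in 2 pairs, at -241 and -230 and at -129 and -112. ICAM1 (chr19:10271000-10271098, plus strand) has 1, at -75.
BCL6: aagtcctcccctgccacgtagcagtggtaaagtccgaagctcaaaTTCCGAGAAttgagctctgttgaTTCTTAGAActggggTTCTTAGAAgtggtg
CISH: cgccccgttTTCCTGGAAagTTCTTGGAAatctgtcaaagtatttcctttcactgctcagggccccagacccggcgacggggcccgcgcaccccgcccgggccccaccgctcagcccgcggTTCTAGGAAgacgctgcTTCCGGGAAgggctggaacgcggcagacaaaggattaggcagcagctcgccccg
ICAM1: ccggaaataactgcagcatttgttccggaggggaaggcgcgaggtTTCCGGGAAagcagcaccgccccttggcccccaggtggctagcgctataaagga
A match is a description of the letters, and the windows of SOCS3, FOS, JUNB and IL24 held none in this stretch.

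AP-1 subunits fell in part. Of 11 genes tested, of 15 listed, 6 were called lower and 0 higher, with a median of -1.10. FOS, a partner of the JUN proteins, was at 1527 and 1627 normalized counts in Ctrli_TAM and at 164 and 112 in STAT3i_TAM, 11.2-fold lower (-3.48, SE 0.19, adjusted p 1.9e-68). BATF3, a small AP-1 protein that pairs with JUN family members, went from 297 and 260 to 25 and 26.3 (-3.43, SE 0.35, adjusted p 2.1e-20). ATF3, a stress-induced repressor, was at 198 and 178 against 24.2 and 26.3 (-2.88). JUNB was at 2944 and 4116 against 644 and 665 (-2.41, SE 0.16, adjusted p 2.5e-47), so that the spread between its controls was small beside the difference. FOSL2 (-1.27) and MAFK (-1.10) were lower by less. JUN, with 435 and 620 against 580 and 651, was not called (0.25, adjusted p 0.504), and neither were JUND (-0.23, adjusted p 0.663), FOSL1 (-0.67, adjusted p 0.161) or JDP2 (0.73, adjusted p 0.0312). FOSB, BATF, BATF2 and MAF were too low to be tested. The call of MAFK was lost without any 1 library (highest adjusted p 0.108), and the other 5 calls were kept.

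Immediate-early genes outside AP-1 moved in both directions. Of 13 tested, of 17 listed, 5 were lower and 1 higher. ZFP36, which encodes the mRNA-destabilizing protein tristetraprolin, was at 588 and 475 against 102 and 121 (-2.24, SE 0.24, adjusted p 6.6e-18). EGR1, a zinc finger factor, went from 123 and 79.8 to 25 and 35.1 (-1.75, adjusted p 0.00496). KLF6, another zinc finger factor, was higher, at 1097 and 1046 against 1995 and 1991 (0.91, SE 0.14, adjusted p 1.1e-09). Between 2 and 3 genes of this list stayed called lower without any 1 library. Among MAPK feedback genes, 5 of 13 tested were lower and 1 higher. DUSP6, a phosphatase of ERK, fell from 826 and 989 to 380 and 323 (-1.34, SE 0.19, adjusted p 1.1e-10), and SPRED3, SPRY4, SPRED1 and DUSP1 by -2.62, -1.01, -0.75 and -0.41. DUSP10, a phosphatase of JNK and p38, was called higher (1.51, SE 0.42, adjusted p 0.0051). The lower calls of the MAPK list came to 1 or 2 without any 1 library, and the calls of DUSP10 and EGR1 were lost in all 4 such fits (highest adjusted p 0.314 and 0.528).

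**Figure D2:**
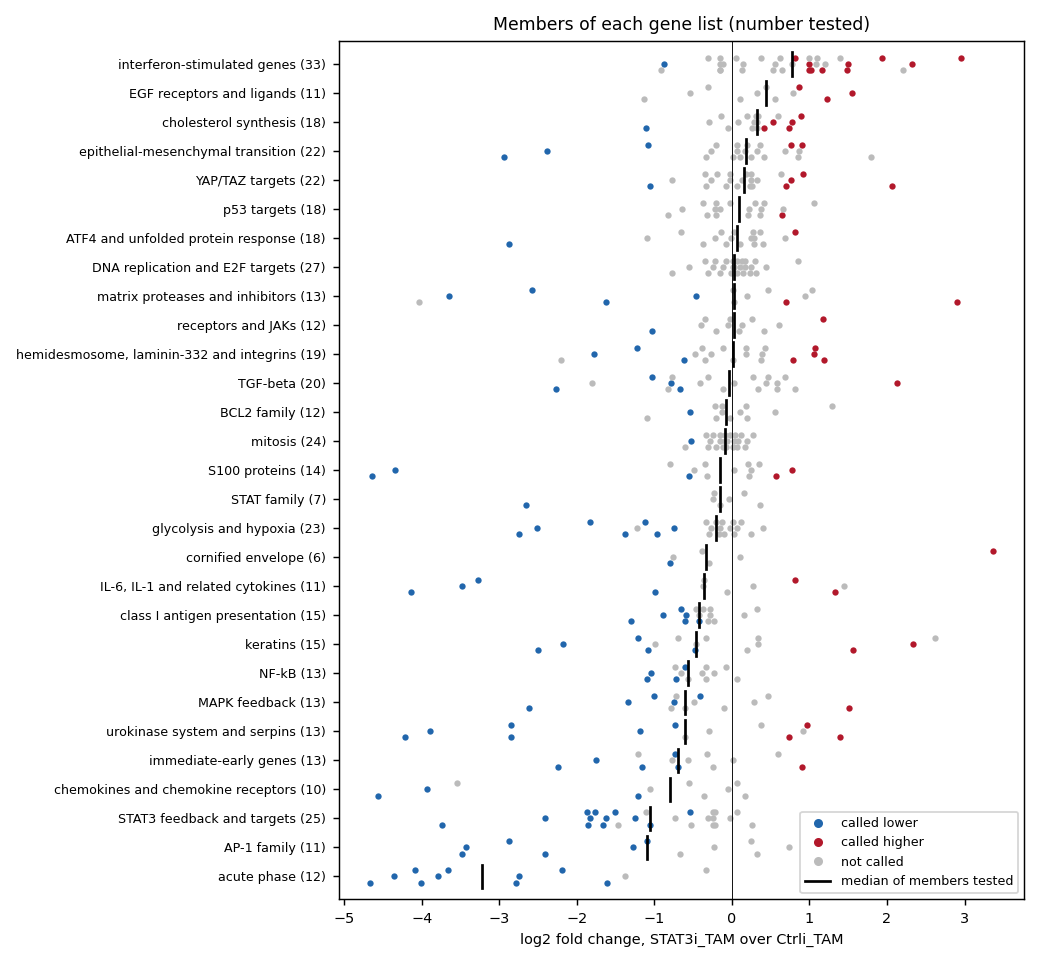
Each row is a gene list with the number of its members tested; points are members at their log2 fold change of STAT3i_TAM over Ctrli_TAM, coloured where the adjusted p is under 0.01, and black bars are medians. Acute phase genes have the lowest median (-3.22), AP-1 genes and STAT3 targets lie near -1.1, E2F targets sit at 0.03 with no member called, and interferon-stimulated genes have the highest (0.78).

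The acute phase list moved furthest. Of 12 members tested, of 22 listed, 10 were lower and 0 higher, and the median was -3.22. SERPINA1, which encodes the protease inhibitor alpha-1 antitrypsin, was at 7641 and 7130 normalized counts in Ctrli_TAM and at 602 and 451 in STAT3i_TAM, 13.8-fold lower (-3.79, SE 0.15, adjusted p 2.3e-145). SERPINA3, or alpha-1 antichymotrypsin, was at 12631 and 12153 against 920 and 513 (-4.09, SE 0.42, adjusted p 1.3e-20), although it shares 31.7% of its exonic bases with other genes. LRG1, a secreted glycoprotein, went from 261 and 203 to 13.6 and 14.9 (-4.01). The haemoglobin-binding protein HP was at 167 and 133 against 9.83 and 4.39, and the iron-binding protein LTF at 53.9 and 36.8 against 6.05 and 0.878. LBP, which binds bacterial lipopolysaccharide, was at 32.6 and 28.7 against 2.27 and 0. SAA1, SAA2 and SAA4 were also lower, but their copies are nearly identical and their counts uncertain. Without any 1 library, 7 members stayed called lower, and LBP and LTF did not (highest adjusted p 0.223 and 0.306).

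The calcium-binding proteins S100A8 and S100A9, which form calprotectin, carried the largest change in absolute counts among the S100 genes. S100A9 was at 48391 and 58698 in Ctrli_TAM and at 2985 and 1226 in STAT3i_TAM, 25-fold lower (-4.64, SE 0.62, adjusted p 7.8e-12), and S100A8 at 19854 and 20091 against 1451 and 480 (-4.35, SE 0.73, adjusted p 1.3e-07). The knockdown libraries differed from each other more than 2-fold in both genes and were still far below the controls. The call of S100A8 was lost without Ctrli_TAM replicate 1 or 2 (highest adjusted p 0.0187) and that of S100A9 was kept. Of the 14 S100 genes tested, S100A11 was also lower (-0.55), and S100A14 and S100A2 were higher (0.78 and 0.57). The serpins SERPINB3 and SERPINB4, inhibitors of proteases in squamous epithelium, fell in a like manner, from 20098 and 18675 to 1645 and 928 and from 10633 and 9337 to 760 and 296. The sequences of this pair are close enough that reads may have been split between them. SERPINE2 and SERPINB1, inhibitors of serine proteases, were each lower by -2.85, and 3 serpins were higher, among them SERPINB2 or PAI-2, at 172 and 133 against 398 and 399 (1.39, SE 0.26, adjusted p 1.9e-06; 0.0238 without STAT3i_TAM replicate 1).

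Cytokines split. Of 11 members tested, of 23 listed, 4 were lower and 2 higher. IL24, a cytokine of the IL-10 family, was at 8606 and 7976 normalized counts in Ctrli_TAM and at 516 and 407 in STAT3i_TAM, 17.7-fold lower (-4.14, SE 0.14, adjusted p 9.4e-194). Of its exonic bases, 41.6% overlap other genes. IL20, its neighbour and relative, went from 48.9 and 34.8 to 2.27 and 5.27, and IL33, an alarmin, from 108 and 111 to 18.2 and 3.51. CSF3, the granulocyte growth factor, was lower by -0.99. IL18 and IL1A, of the IL-1 family, were higher, at 637 and 686 against 1733 and 1530 (1.33, SE 0.16, adjusted p 1.2e-15) and at 576 and 581 against 1090 and 926 (0.82). Without 1 library, between 2 and 3 of the lower and between 1 and 2 of the higher cytokine genes stayed called, and IL20, IL33 and IL1A were among the losses (highest adjusted p 0.317, 0.0197 and 0.119). Of 10 chemokine genes tested 3 were lower, namely CCL20 (-1.21) and the receptors CXCR1 (-4.56) and CXCR2 (-3.93; adjusted p 0.151 without Ctrli_TAM replicate 2). The NF-kB genes RELB (-1.09), TNFAIP2 (-1.04), NFKB2 (-0.72) and NFKBIA (-0.60) were called among 13 tested, and without any 1 library 0 or 1 of them stayed called.

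The 12 largest falls and the 12 largest rises among protein-coding genes with a mean of at least 100 normalized counts were also read gene by gene. The fall was largest in ADAMTS4, a protease of cartilage aggrecan, from 1268 and 1126 normalized counts to 24.2 and 5.27 (-6.31, SE 0.93, adjusted p 6.8e-10). STC1, a secreted glycoprotein hormone, was at 5261 and 4298 against 181 and 104 (-5.05, SE 0.41, adjusted p 9.2e-32). TNC, the matrix protein tenascin C, was at 4247 and 3168 against 178 and 170, 21-fold lower (-4.39, SE 0.17, adjusted p 7.4e-143). CHI3L1, a chitinase-like glycoprotein of inflamed tissue, went from 1349 and 1207 to 65 and 27.2 (-4.76). The serine protease TMPRSS4 was at 430 and 428 against 12.1 and 4.39, the sterol transfer protein GRAMD1B at 1122 and 774 against 22.7 and 23.7, and the poly(A) polymerase TENT5C at 397 and 297 against 25.7 and 11.4. S100A9, S100A8, CXCR1, SERPINB4 and IL24 complete the group. In 11 of these 12 genes STAT3i_TAM replicate 1 was above replicate 2, the exception being GRAMD1B. Over the 83 genes called lower at 4-fold or more with a mean of at least 100, the first replicate was above the second in 66.3%, against 38.9% of all 597 genes called lower and 56.1% of all 9601 genes tested at that level. STAT3 itself was at 715 and 631 in them.

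Among the rises, CD24, a surface glycoprotein that serves as an epithelial and stem cell marker, was at 431 and 467 in Ctrli_TAM and at 4101 and 3252 in STAT3i_TAM, 8.33-fold higher (3.06, SE 0.16, adjusted p 6e-80). Sequences close to it elsewhere in the genome make its count uncertain. CDKN1C, the cyclin-dependent kinase inhibitor p57, went from 30.1 and 59.4 to 407 and 422 (3.29, SE 0.33, adjusted p 5.8e-21). TIMP3, a matrix-bound inhibitor of metalloproteinases, was at 74 and 73.7 against 511 and 574 (2.90, SE 0.27, adjusted p 1.8e-25). ANKRD2 and NEXN, which encode proteins known from muscle, went from 148 and 194 to 1224 and 1461 and from 41.4 and 38.9 to 349 and 252. The guidance factor SEMA3C was at 224 and 176 against 1273 and 1142, and ZBED2, a transcription factor of keratinocytes, at 71.5 and 59.4 against 370 and 407. IFIT1, IFI27, KRT15 and C1orf116 belong to the group as well. H4C12, a histone H4 gene with many near-identical copies, was listed with 0 counts in both Ctrli_TAM libraries and 756 and 579 normalized counts in STAT3i_TAM, and its level is uncertain.

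**Figure D3:**
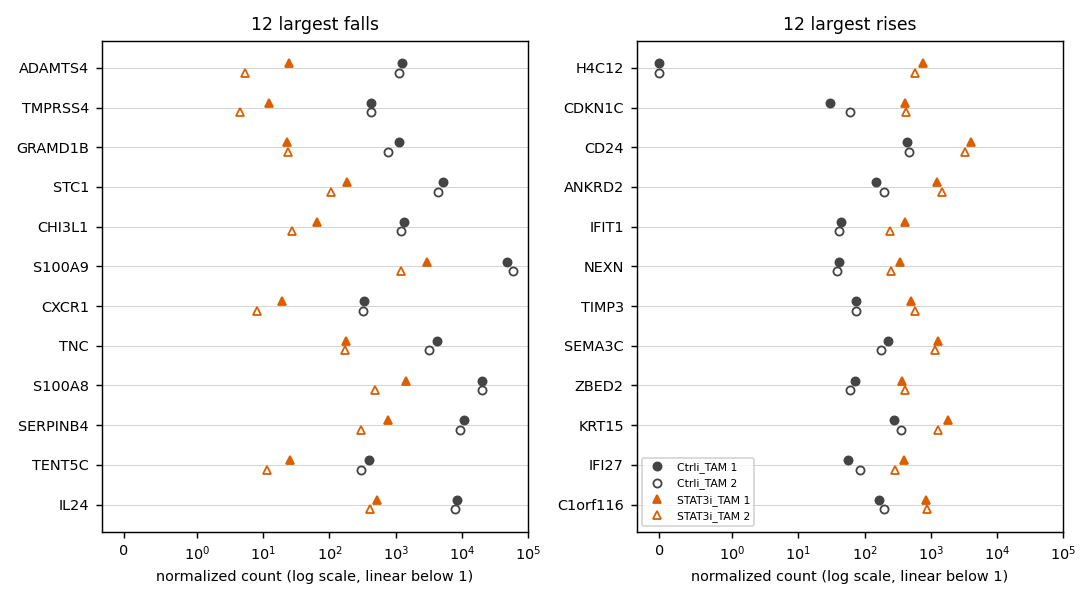
The horizontal axes give the normalized count of each gene in the 2 Ctrli_TAM (circles) and 2 STAT3i_TAM (triangles) libraries on a log scale that is linear below 1; replicate 1 is filled and replicate 2 open. In every gene shown the groups do not overlap, which the choice of genes required, and the open triangles lie left of the filled ones for 11 of the 12 falls.

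Interferon-stimulated genes had the highest median of the lists, 0.78. Of 33 tested, of 35 listed, 10 were higher and 1 lower. Their summed normalized counts overlapped between the groups, at 11813 and 12177 in Ctrli_TAM and 14848 and 11650 in STAT3i_TAM. IFIT1, which blocks translation of foreign RNA, was at 43.9 and 40.9 normalized counts in Ctrli_TAM and at 409 and 244 in STAT3i_TAM (2.96, SE 0.37, adjusted p 1.1e-13). IFI27 went from 56.4 and 86 to 394 and 292 (2.32), IFI6 from 69 and 88 to 353 and 235 (1.94), and OAS1, a sensor of double-stranded RNA, from 87.8 and 81.9 to 270 and 201 (1.49). IFI16, a DNA sensor, was lower (-0.88). Outside this list, the interferon-induced genes IFITM1, IFITM2 and IFITM3 were called lower too (-1.75, -1.88 and -1.83). In all 4 of the genes with values given the first knockdown replicate was above the second, as it was in 79.7% of the 424 genes called higher with a mean of at least 100. The 10 higher calls came to 2 without STAT3i_TAM replicate 1 and to 4 without any 1 of the other 3 libraries. Genes of class I antigen presentation, which interferon also induces, had a median of -0.42, with 6 of 15 lower and 0 higher. TAPBP, the peptide-loading factor tapasin, was at 623 and 618 against 208 and 290 (-1.30), and HLA-B at 2672 and 2884 against 1510 and 1437 (-0.89). The tapasin gene shares 21% and HLA-B 47.3% of their exonic bases with other genes. HLA genes share sequence and their counts are uncertain, and 2 or 3 of the 6 calls remained without any 1 library.

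Among EGF receptors, their ligands and the receptor inhibitor ERRFI1, a pair of ligands was higher. Of 11 genes tested, of 13 listed, 3 were higher and 0 lower, and the median was 0.44. EPGN, or epigen, was at 418 and 415 against 1251 and 1157 (1.55, SE 0.17, adjusted p 3.1e-18). AREG, or amphiregulin, went from 2065 and 2362 to 5264 and 4890 (1.22, SE 0.12, adjusted p 1.7e-20). HBEGF, another ligand, was at 122 and 121 against 53.7 and 55.3 and was not called (-1.13, adjusted p 0.039), although edgeR (adjusted p 0.0055), effective lengths (0.00991) and the fit over all ER-Src groups (0.00149) called it lower. ERRFI1 was higher by 0.87, and of the 3 called genes it alone lost the call without 1 library (adjusted p 0.0509 without STAT3i_TAM replicate 1).

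Adhesion and cytoskeletal genes moved both ways. Of 15 keratins tested, 5 were lower and 2 higher. KRT6A, KRT6B and KRT6C, the keratins of activated keratinocytes, changed by -1.21, -2.18 and -2.50, and the basal keratins KRT14 and KRT17 by -1.08 and -0.47. KRT15, another basal keratin, was at 276 and 350 against 1839 and 1266 (2.34, SE 0.21, adjusted p 5.2e-27), and KRT81, a hair keratin, at 19635 and 23395 against 60795 and 63917 (1.56, SE 0.11, adjusted p 3.5e-40). KRT6 genes and KRT81 have close relatives that can share reads. The laminin chain LAMA3 (1.07), the hemidesmosome linker DST (1.19) and the integrin ITGB1 (0.79) were higher, while the integrins ITGB6 (-1.78) and ITGA5 (-1.23) were lower. CDH1, or E-cadherin, was at 634 and 512 against 1046 and 1078 (0.90, SE 0.17, adjusted p 6.2e-06). Its repressors split, with SNAI1 lower (61.4 and 57.3 against 9.08 and 6.14) and SNAI2 higher (0.76). The calls of SNAI1 and SNAI2 were lost without any 1 library (highest adjusted p 0.161 and 0.296) and that of CDH1 without Ctrli_TAM replicate 2 or STAT3i_TAM replicate 1 (highest 0.0176). ADAM19 and ADAM8, membrane proteases, fell by 3.65 and 2.58 on the log2 scale.

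Among growth and metabolism lists, those of DNA replication, mitosis, p53 targets and the BCL2 family had 0 or 1 member called. The other lists given here had more. Over all genes tested 8.09% were called. Of 27 DNA replication and E2F target genes 0 were called with DESeq2 or edgeR (median 0.03), with 7 and 8 at an unadjusted p under 0.05. Of 24 mitosis genes 1 was lower, MKI67 (-0.53, adjusted p 0.00948; highest 1 without 1 library). Of 18 p53 targets 1 was higher, PHLDA3 (0.64, adjusted p 0.00756; highest 0.362 without 1 library), and of 12 BCL2 family genes only MCL1 was called. In glycolysis and the hypoxia response 7 of 23 were lower, among them PFKFB3, a regulator of glycolytic flux, at 1431 and 1160 against 209 and 241 (-2.51, SE 0.19, adjusted p 2.9e-39), EGLN3, an oxygen sensor (-2.75), and NDRG1 (-1.38). The call of EGLN3 was lost without any 1 library. Without any 1 library 3 or 4 of the 7 stayed called. Of 18 cholesterol synthesis genes 5 were higher, led by HMGCS1 (0.89, SE 0.13, adjusted p 2.2e-10), and 2 without any 1 library but STAT3i_TAM replicate 2, while SREBF2, the factor that drives this pathway, was lower at 1047 and 941 against 366 and 548 (-1.11; highest adjusted p 0.0261 without 1 library). Of 20 TGF-beta genes 4 were lower, BAMBI, a decoy receptor (292 and 293 against 49.9 and 70.2, -2.27, SE 0.31, adjusted p 2.7e-11), SMAD3 (-1.03; highest adjusted p 0.353 without 1 library), ID1 (-0.79; 0.232) and LTBP1 (-0.67). In the same list ID3, an inhibitor of differentiation factors, was higher at 123 and 158 against 538 and 660 (2.13, SE 0.24, adjusted p 1.9e-16). Of 22 YAP/TAZ target genes 4 were higher and 1 lower (median 0.16), and between 2 and 4 stayed called higher without 1 library.

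A comparison of the knockdown in untransformed cells used the ETH libraries, of which none enters the TAM comparison. Under ETH, STAT3i against Ctrli called 37 of 18444 genes (0.201%), 30 lower (0.163%) and 7 higher (0.038%). edgeR called 0 there, with 1065 genes at an unadjusted p under 0.05, against 613 with DESeq2, and without 1 library the DESeq2 count lay between 4 (Ctrli_ETH replicate 2 left out) and 121 (STAT3i_ETH replicate 1 left out). The standard deviation of the log2 ratio between replicates was 0.68 in STAT3i_ETH and 0.461 in STAT3i_TAM. For the controls it was 0.444 in Ctrli_ETH and 0.582 in Ctrli_TAM. A count of calls depends on this spread as well as on the effect. The difference between the effect in TAM and the effect in ETH was tested as an interaction over the 8 libraries. It was called for 222 of 15885 genes (1.4%), 151 negative (0.951%) and 71 positive (0.447%), and edgeR called 56. Without 1 library the count lay between 119 (Ctrli_TAM replicate 1 left out) and 397 (STAT3i_ETH replicate 1 left out). Of the STAT3 feedback and target list 7 of 25 interactions were called, all negative, and of the AP-1 list 3 of 11, all negative.

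The levels behind these interactions were read in the 4 conditions. SOCS3 was at 64.1 and 66.9 normalized counts in Ctrli_ETH and at 26.2 and 38 in STAT3i_ETH, against 3545 and 3528 and 300 and 221 under TAM (interaction -2.73, SE 0.33, DESeq2 adjusted p 3e-13). FOS was at 251 and 291 in Ctrli_ETH and at 181 and 152 in STAT3i_ETH (interaction -2.82, SE 0.31, adjusted p 9.8e-17). JUNB was at 546 and 701 and at 356 and 693 under ETH. In STAT3i_TAM, FOS (164 and 112) was thus below its level in Ctrli_ETH and JUNB (644 and 665) lay within it, while SOCS3 (300 and 221) was above. IL24 was at 19.3 and 13.8 in Ctrli_ETH and 12.7 and 32.9 in STAT3i_ETH, and TNC at 27.5 and 41.5 and at 40.6 and 47.3, so that both were low in untransformed cells with and without STAT3i (interactions -4.57 and -4.78, adjusted p 2.6e-25 and 6.9e-37). VEGFA was at 603 and 608 in Ctrli_ETH and 499 and 659 in STAT3i_ETH, next to 688 and 656 in STAT3i_TAM. TIMP3 showed the mirror pattern, with 511 and 545 in Ctrli_ETH, 566 and 691 in STAT3i_ETH and 511 and 574 in STAT3i_TAM, and 74 and 73.7 in Ctrli_TAM alone. CD24 in STAT3i_TAM lay above every other condition, since it was at 1072 and 935 in Ctrli_ETH and 1661 and 1815 in STAT3i_ETH. IFIT1 was at 61.1 and 56.5 in Ctrli_ETH and 112 and 51.4 in STAT3i_ETH.

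**Figure D4:**
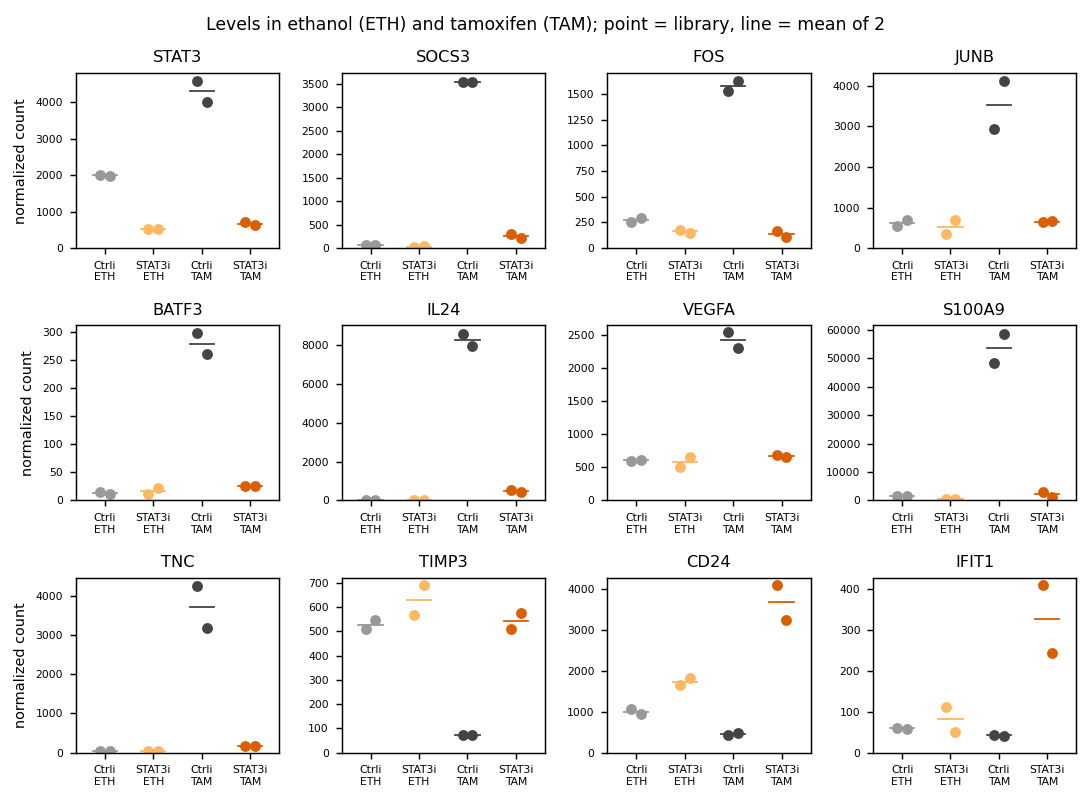
Each panel gives the normalized count of 1 gene in Ctrli_ETH, STAT3i_ETH, Ctrli_TAM and STAT3i_TAM, on a linear axis from 0; points are libraries and lines the means of 2. For SOCS3, FOS, JUNB, BATF3, IL24, VEGFA, S100A9 and TNC the 2 Ctrli_TAM libraries stand above all others, for TIMP3 they stand below all others, and for CD24 and IFIT1 the 2 STAT3i_TAM libraries stand above all others.

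The response to TAM in the control cells, Ctrli_TAM against Ctrli_ETH, shares the Ctrli_TAM libraries with the main comparison and is given beside it. It called 974 of 15934 genes (6.11%), 726 higher (4.56%) and 248 lower (1.56%). Among the STAT3 feedback genes and targets 16 were higher in TAM and 12 lower with STAT3i, among the acute phase genes 10 and 10, and among the AP-1 genes 6 and 6.

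For S100A9 the knockdown lowered the level in ETH too, from 1414 and 1544 to 554 and 368 (-1.67, adjusted p 3.3e-10), and the effect under TAM was larger (interaction -2.99, SE 0.68, adjusted p 0.00114). CD24 was called in ETH as well (0.80, adjusted p 0.00626). For the remaining largest falls with a called interaction, ADAMTS4, STC1, GRAMD1B and TENT5C, the Ctrli_ETH libraries held at most 12.7 normalized counts, so that a further fall there was hardly measurable.

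**Figure D5:**
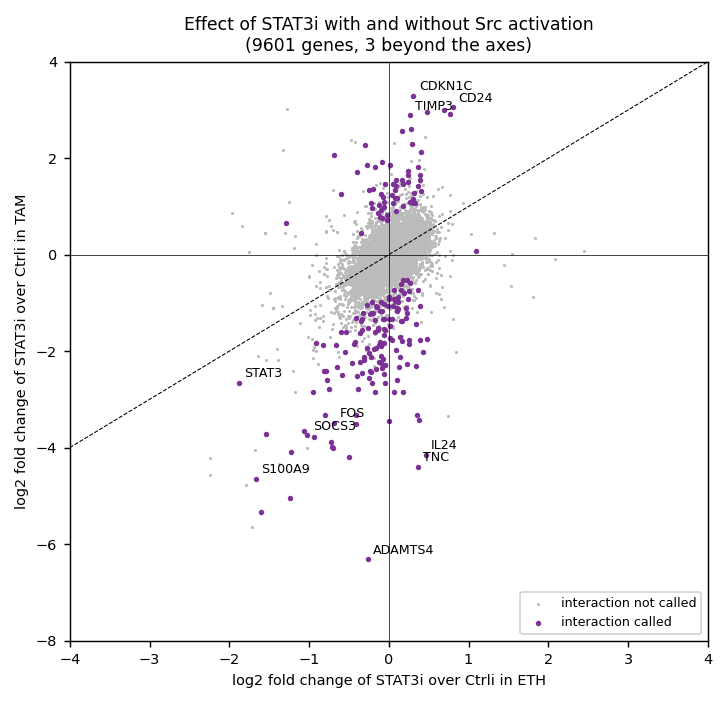
Each point is 1 of 9601 genes with a mean of at least 100 normalized counts in the TAM libraries; the horizontal axis is the log2 fold change of STAT3i over Ctrli in ETH and the vertical axis the same in TAM, with the line of equal change dashed. Genes with a called interaction (purple) spread along the vertical axis, and STAT3 lies at -1.88 in ETH and -2.66 in TAM.

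The knockdown was also set against JUNBi_TAM, the knockdown whose libraries match it in effective length. This comparison shares the STAT3i_TAM libraries with the main one, so values stand side by side. It called 928 of 15506 genes (5.98%), 455 lower in STAT3i (2.93%) and 473 higher (3.05%). STAT3 was at 4916 and 5372 in JUNBi_TAM. The JUNB transcript was at 693 and 1007 in JUNBi_TAM and at 644 and 665 in STAT3i_TAM, and the 2 knockdowns did not differ in it at the threshold (-0.37, SE 0.20, adjusted p 0.333). SOCS3 was at 2536 and 2910 (-3.37 in STAT3i against JUNBi, SE 0.18, adjusted p 1.3e-78), FOS at 439 and 584 (-1.87, SE 0.25, adjusted p 1.9e-11) and S100A9 at 23932 and 26058 (-3.56, SE 0.61, adjusted p 2.9e-07). TIMP3, at 386 and 356, was not separated (0.56, adjusted p 0.0425). Of the acute phase list 13 of 13 tested were lower in STAT3i than in JUNBi. IFIT1 was at 57.9 and 69.4 in JUNBi_TAM and between 38 and 46 in the libraries with a knockdown of YAP or TAZ under TAM, all below both STAT3i_TAM libraries.

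STAT3 was also knocked down in MDA-MB-231, against 2 controls of its own. These libraries differed in composition from the ER-Src libraries. The abundant RNAs without poly(A) tails took between 0.0036% and 0.011% of counts and mitochondrial genes between 3.4% and 4.76%. Gene length exceeded the effective length by about 74.5 bases. In setting the lines side by side, cell line and library type cannot be told apart. STAT3 was at 528 and 364 normalized counts in the controls and at 73.5 and 94.4 in the knockdown (-2.41, DESeq2 unadjusted p 8.4e-14), and DESeq2 gave it no adjusted p. Of 4639 genes with an adjusted p, 11 were called (0.237%), all lower, and edgeR called 0, with 842 at an unadjusted p under 0.05 against 691 with DESeq2. Without 1 library DESeq2 called 336 (control replicate 3 left out), 9 (control replicate 4), 1 (STAT3i replicate 1) or 1 (STAT3i replicate 2). Of the 11 genes, 3 were called in TAM-treated ER-Src cells too, all in the same direction, and of the 4563 genes with an adjusted p in both, 459 were called in ER-Src. LTB4R, a leukotriene B4 receptor, was at 362 and 387 against 41.6 and 61.4 in ER-Src (-2.85) and at 501 and 706 against 246 and 265 in MDA-MB-231 (-1.24). ID1, an inhibitor of differentiation factors, changed by -0.79 and -0.77, and the linker histone H1-10 by -0.95 and -1.21. In ER-Src both lost the call without STAT3i_TAM replicate 1 or Ctrli_TAM replicate 2, among others (highest adjusted p 0.232 for ID1 and 0.283 for H1-10). SOCS3 was at 132 and 84.6 against 54.9 and 90.7 in MDA-MB-231 (-0.57, unadjusted p 0.237), and the libraries overlapped. S100A8 and S100A9 were listed with 0 counts in all 4 of these libraries.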

How the data were processed

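RNA of MCF-10A ER-Src and MDA-MB-231 cells was sequenced, and the authors aligned the reads with STAR and quantified genes with RSEM on hg38, per the submitters' processing notes (versions not given in the sources used here). The deposited expected counts are RSEM estimates per gene, not normalized, and they were rounded to whole numbers. Of 61471 identifiers, the 60725 Ensembl genes were kept, and 93.1% matched GENCODE 44, which gave names and coordinates. The deposited TPM values of the authors were used for a check. Over 9601 genes with a mean of at least 100 normalized counts the median log2 TPM ratio of STAT3i_TAM to Ctrli_TAM was 0.42, against 0.03 for normalized counts, and genes under 150 bases took 37.8% and 41.1% of TPM in Ctrli_TAM and 28.1% and 34% in STAT3i_TAM. Levels are therefore normalized counts, a choice made after seeing the data.

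Each comparison was run on its own libraries with DESeq2 1.42.0 (R 4.3.3, default settings, no shrinkage) and called at a Benjamini-Hochberg adjusted p under 0.01 over all genes tested. The TAM and ETH effects were compared by an interaction term over 8 libraries. Levels of the 20 ER-Src libraries share 1 scale and MDA-MB-231 has its own. The alternatives were edgeR 4.0.16 (quasi-likelihood), TMM size factors, a mean count of at least 10, effective lengths as offsets, a fit over all ER-Src groups, a replicate block, and leaving out each library. On simulated data of the main comparison, 14426 genes with 1 false call, DESeq2 recovered 45.7% of genes changed by 1 on the log2 scale and 78.9% of those changed by 2. The simulated spread followed a fixed formula of the mean and was not estimated from these libraries. These rates are therefore not error rates of the real data. The set of named genes holds every member of the receptor, STAT, target and AP-1 lists, although some uncalled members are not given above. It holds up to 6 called genes of each other list and the 12 largest falls and rises with a mean of at least 100. Up to 6 interactions each way and genes shared with MDA-MB-231 complete it. Other genes were named after their values were seen, and some results are not reported here. The members and the 34 lists were chosen with earlier results of these data known. Promoters are from RefSeq (GRCh38.p14).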

Additional observations from a re-analysis of the deposited data

Results flagged for a closer look

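For 33 genes named here, the effect of STAT3i under TAM differed from its effect under ETH by the interaction test of DESeq2 at an adjusted p under 0.01. The values below are the log2 fold change in TAM minus that in ETH. All of them come from the same 8 libraries, and no explanation was tested.

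The effect was more negative under TAM for STAT3 itself (-0.80), for its feedback genes and targets SOCS3 (-2.73), BCL6 (-1.23), IL4R (-1.44), VEGFA (-1.80), PIM1 (-2.04), HIF1A (-1.14) and TIMP1 (-1.28), and for the receptor OSMR (-0.98). Among AP-1 genes it was more negative for FOS (-2.82), BATF3 (-3.80) and JUNB (-2.19). It was so also for IL24 (-4.57), S100A9 (-2.99), ADAMTS4 (-6.09), GRAMD1B (-3.70), STC1 (-3.80), TNC (-4.78) and TENT5C (-3.70).

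The effect was more positive under TAM for IL20RB (1.06), TIMP3 (2.62), IFIT1 (2.45), CDKN1C (2.96), CD24 (2.24), ANKRD2 (2.30), NEXN (2.13), SEMA3C (2.31), ZBED2 (2.39), C1orf116 (1.97) and SNCG (2.56), a synuclein. ENSG00000263900.1, with no match in the annotation used, had 2.72.

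The remaining 2 estimates are not usable as sizes. H4C12 (11.29) was at 0 counts in both Ctrli_TAM libraries and has near-identical copies. ENSG00000269968 (-30.00), which overlaps other genes over 100% of its exonic bases, was at 1535 and 3960 normalized counts in Ctrli_TAM and 0 in both STAT3i_TAM libraries, and at 0 and 0 in Ctrli_ETH against 0 and 4710 in STAT3i_ETH.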

How the results depend on the processing

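The STAT3 fold change lay between -2.75 and -2.54 on the log2 scale in every alternative fit and was called in each. The 1170 genes called in TAM became 660 with a replicate block and 409 to 638 without 1 library, and stayed within 1.5 times under the others. Called interactions (222) became 56 with edgeR and 119 to 397 without 1 library. The 37 genes called in ETH became 0 with edgeR, 11 with a replicate block, 17 with TMM size factors, 13 with effective lengths and 4 to 121 without 1 library. The comparison with JUNBi_TAM (928) gave 406 to 461 without 1 library. Ctrli_TAM against Ctrli_ETH (974) gave 626 with a replicate block and 420 to 500 without 1 library. In MDA-MB-231 the 11 became 0 with edgeR and 1 to 336 without 1 library. The cause was not tested, but a fit without 1 library has fewer samples.

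Each comparison has 2 pairs of replicate numbers. The correlation of same-numbered deviations was -0.0401 for TAM, 0.113 for ETH, 0.16 for the comparison with JUNBi_TAM and 0.083 for the TAM response, and no label says that a number marks a shared culture or day, so pairing was not established, and the replicate block gave 660 and 11 calls in TAM and ETH. No paired analysis was possible because of the numbering in MDA-MB-231 alone, where controls are numbered 3 and 4 and the knockdowns 1 and 2.

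Of 192 named genes 150 were called, 107 of them under all 6 other settings and 83 without any 1 library. No direction reversed. Without 1 library between 38 and 55 named calls were lost, and with the block 29. Calls of DUSP1, KRT17, MCL1, MKI67, PHLDA3, FDPS and MMP14 were among those lost with edgeR.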

Other observations

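Genes called lower often lay next to each other. Of 615 protein-coding genes called lower, 157 (25.5%) had an immediate neighbour also called lower, against 9.58% of all 12163 protein-coding genes tested. For genes called higher it was 52 of 443 (11.7%) against 7.03%. Neighbours can be relatives that share reads, and the genes below were chosen after their values were seen.

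A run of 4 neighbouring metallothionein genes on chromosome 16, which encode small proteins that bind zinc and copper, was called lower. MT1X was at 11987 and 12957 normalized counts in Ctrli_TAM and at 1291 and 1171 in STAT3i_TAM (-3.32, DESeq2 adjusted p 2.9e-176), and MT2A at 35562 and 39151 against 9995 and 10865 (-1.82). MT1F and MT1E changed by -2.67 and -0.97. Copies of this family are close in sequence. The membrane proteins IFITM1, IFITM2 and IFITM3 on chromosome 11, which interferon induces and which hinder virus entry, were lower by 1.75, 1.88 and 1.83 on the log2 scale, in contrast to IFIT1. IFITM3 was at 8541 and 7947 against 2277 and 2286 in TAM and at 2363 and 2690 against 1220 and 1453 in ETH.

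C1R and C1S, the proteases that start the classical complement pathway, lie side by side on chromosome 12. C1R was at 3122 and 3002 against 795 and 620 (-2.09) and C1S at 790 and 751 against 317 and 255 (-1.41). Under ETH C1R was at 441 and 458 against 152 and 134 (-1.64, adjusted p 8.8e-07). A run of 3 receptor genes of the IL-1 family on chromosome 2 was called lower as well, and no count was made over either family. The decoy receptor IL1R2 was at 644 and 702 against 145 and 73.7, IL1R1 at 707 and 591 against 236 and 228, and the IL-33 receptor IL1RL1 at 5555 and 6140 against 1426 and 724.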
